A study of Mus musculus with 2 samples.

Results

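Fcrls-high macrophages were 420 of the 7005 cell barcodes deposited for immune cells of mouse MC38 tumours, 28 in a library from responder tumours and 392 in a library from non-responder tumours. Their defining gene, Fcrls (Fc receptor-like S, scavenger receptor), lies on the minus strand at chr3:87250758-87263738 of GRCm38 (ENSMUSG00000015852). A barcode was a member if it had at least 500 genes and at most 10% mitochondrial UMIs (unique molecular identifiers, each counting 1 captured transcript), and if C1qa, C1qb and C1qc made up at least 1% of its UMIs. Members were thus selected on their UMIs of these genes. A member also had no UMI of Cd3d, Cd3e, Cd3g, Mki67 or Top2a, under 10 UMIs each of Arg1 and Cxcl9, under 20 of Spp1, under 3 of Ccl8, and at least 8 of Fcrls. Macrophages that met the same limits and had 0 UMIs of Fcrls (Fcrls-0 cells), 1180 in the responder library and 148 in the non-responder one, served for comparison. Because Fcrls chose both classes within each library, every difference between them is a description and was not tested.

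Tissue-resident macrophages are seeded before birth or renewed slowly from blood monocytes, and they carry transcripts that newly arrived monocyte-derived cells lack or hold at low level. Fcrls, Gpr34 and P2ry12 are best known from microglia, the macrophages of the brain, while Mrc1 (the mannose receptor), Folr2 (folate receptor beta) and the chemokine gene Pf4 mark resident macrophages of many other tissues. MHC class II molecules, which present peptides to CD4 T cells, and Ly6c2, which marks classical blood monocytes, are commonly used to divide monocytes and macrophages into subsets.

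Both groups were C57BL/6 mice that carried MC38-GFP+ adenocarcinoma cells, 50000 per animal under the skin, and both received anti-PD-1 antibody in 4 doses of 100 µg, given on day 12, day 15, day 18 and day 22, a schedule the submitters call sub-optimal. Anti-PD-1 blocks an inhibitory receptor on T cells. The responder and non-responder groups differ in the labelled response to that treatment, and there was no untreated group. CD45+ leukocytes were sorted from the tumours and profiled with 10x 3′ chemistry as 1 library per group, and the number of tumours behind a library is not given in the sources used here. No difference between libraries therefore has a replicate check. Intervals in brackets are 95% and cover counting error only.

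The libraries held 45866561 UMIs over 4425 barcodes (responder) and 32032569 over 2580 (non-responder), and 14 barcode sequences occurred in both libraries, none of them a member. Fcrls-high cells were deeper than Fcrls-0 cells, with a median of 11641 UMIs (range 7843 to 31832) against 8743 in the responder library and of 12254 (3335 to 23753) against 9342 in the non-responder library. Their median mitochondrial share was 2.0% against 1.98% in the responder library and 2.39% against 2.11% in the non-responder library. No doublet caller was run.

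Fcrls-high cells formed 1.66% [1.1 to 2.39] of 1689 gated responder macrophages and 41.1% [38.0 to 44.3] of 953 gated non-responder macrophages. They supplied 0.765% of all UMIs in the responder library and 15.5% in the non-responder library. The gap was of similar size without the gate. Among all barcodes that passed the gene and mitochondrial limits, 8 or more Fcrls UMIs were found in 92 of 4376 responder barcodes (2.10% [1.70 to 2.57]) and in 1025 of 2565 non-responder barcodes (39.96% [38.1 to 41.9]). The gate kept 30.4% of such barcodes in the responder library and 38.2% in the non-responder library. The largest loss came from the division genes Mki67 and Top2a, which removed 31 responder and 312 non-responder barcodes, and Arg1 removed 27 responder and 239 non-responder barcodes, where a barcode could fail several limits. Ccl8 removed 19 responder and 78 non-responder barcodes, Cxcl9 removed 12 and 18, and Spp1 removed 2 and 230. Dividing cells and cells rich in Arg1, Spp1, Cxcl9 or Ccl8 with as much Fcrls thus lie outside the cells described here. At any Fcrls count, the Cxcl9 limit was failed by 1121 of 4376 responder and 56 of 2565 non-responder barcodes.

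**Figure D1:**
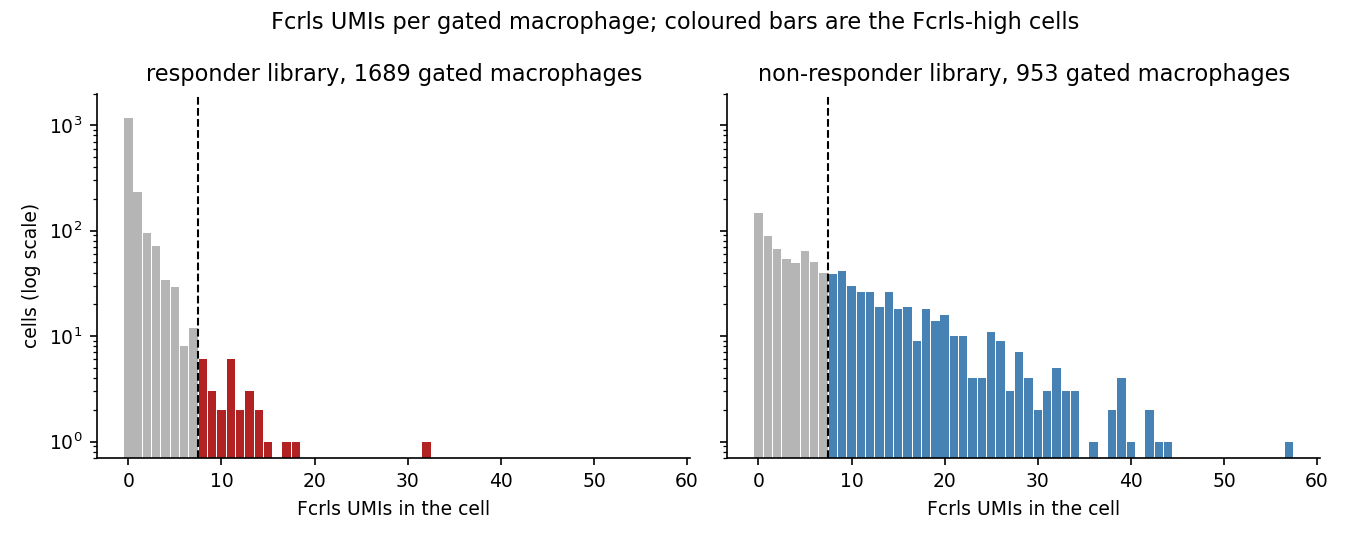
Number of gated macrophages (vertical axis, log scale) with each number of Fcrls UMIs (horizontal axis) in the responder library (left) and the non-responder library (right), with coloured bars for the Fcrls-high cells and a dashed line at the limit. The highest cell held 32 UMIs in the responder library and 57 in the non-responder one, and neither distribution has a gap at the limit of 8.

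Within the members, Fcrls itself had a median of 11 UMIs (8 to 32) in responder and 14 (8 to 57) in non-responder cells. Its summed level was 952 CPM (the usual scaling of a UMI count to the total of its class) in responder and 1292 CPM in non-responder members. The limit of 8 UMIs chose these cells, so the 2 levels do not measure a difference in Fcrls between the libraries. The limit of 8 cut a continuous distribution. The 6 responder cells with exactly 8 UMIs had a median Fcrls level of 756 CPM, against 591 CPM in the 12 cells with 7 UMIs, and MHC class II transcripts made up a median of 3.06% of their UMIs, against 3.72%. The 39 non-responder cells with 8 UMIs and the 40 with 7 had median class II shares of 0.24% against 0.31%. Fcrls in T cells gives the level of free RNA: barcodes with 2 or more Cd3 UMIs and C1q under 0.5% of UMIs carried at most 1 Fcrls UMI in the responder library and at most 2 in the non-responder one. A Fcrls UMI was present in 1.11% of 90 responder and 11.8% of 68 non-responder T cell barcodes, whose median depths were 3766 and 5117 UMIs.

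The members carried the general macrophage genes. Adgre1 (F4/80) was detected in 100% of responder and 95.4% of non-responder members, Csf1r (the receptor for macrophage colony-stimulating factor) in 96.4% and 99.0%, and C1qa, required by the gate, in 100% of both. The haematopoietic gene Ptprc (CD45, the sorted antigen) was detected in 89.3% of responder and 82.9% of non-responder members.

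The 5 further markers of the resident-type name were present to unequal degrees. Pf4 was the most widespread, with a UMI in 89.3% [71.8 to 97.7] of responder members against 35.1% of responder Fcrls-0 cells, and in 94.1% [91.3 to 96.2] of non-responder members against 58.1% of non-responder Fcrls-0 cells. T cell barcodes had Pf4 in 1.11% (responder) and 13.2% (non-responder). The level of Pf4 (chr5:90772435-90773383) was 407 CPM in responder members against 105 CPM in responder Fcrls-0 cells, and 999 CPM in non-responder members against 219 CPM in non-responder Fcrls-0 cells.

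Mrc1 was detected in 46.4% of responder and 58.9% of non-responder members, and P2ry12, the ADP receptor of microglia, in 39.3% and 51.3%. In Fcrls-0 cells Mrc1 was found in 10.1% (responder) and 18.9% (non-responder), and P2ry12 in 12.1% and 26.4%. T cell barcodes had Mrc1 in 1.11% and 1.47%, and none had P2ry12. Folr2 was rarer, in 17.9% [6.06 to 36.9] of responder and 36.0% [31.2 to 40.9] of non-responder members, against 2.37% and 5.41% of Fcrls-0 cells.

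Of the 5 markers, Gpr34, a receptor for lysophosphatidylserine, had the widest gap in this share between members of the 2 libraries. It was detected in 14.3% [4.03 to 32.7] of responder and 58.4% [53.4 to 63.3] of non-responder members. In the responder library that share overlapped the interval of the T cell barcodes, 5.56% [1.83 to 12.5]. Those barcodes were shallower, with a median of 3766 UMIs against 11641 in members. Pf4, at a higher level than Gpr34 in members, was in 1.11% of the same barcodes. Whether Gpr34 in T cell barcodes was free RNA was not tested, so it was not settled whether Gpr34 in responder members exceeds background. After each cell was thinned to 5000 UMIs, Gpr34 was found in 0 of 28 responder members and in 34.4% of 387 non-responder members. A count of 0 allows up to 12.3% of such cells with a UMI at that depth, and limits nothing at full depth. Thinning to that depth left Mrc1 in 10.7% [2.27 to 28.2] of responder members against 6.53% of responder Fcrls-0 cells, intervals that overlapped, and in 33.9% of non-responder members against 12.1% of non-responder Fcrls-0 cells. P2ry12 was left in 28.6% of responder members against 8.61% of Fcrls-0 cells and in 27.4% of non-responder members against 15.2% of Fcrls-0 cells. Folr2 was left in 3.57% of responder members against 1.19% of Fcrls-0 cells and in 20.4% of non-responder members against 1.52% of Fcrls-0 cells. Thinning left Pf4 in 67.9% of responder members against 24.8% of responder Fcrls-0 cells, and in 87.3% of non-responder members against 44.7% of non-responder Fcrls-0 cells.

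The marker set was seldom complete in a single cell. All 5 genes were detected together in 0 of 28 responder and 30 of 392 non-responder members, and none of the 5 in 2 responder and 5 non-responder members. Among Fcrls-0 cells, 577 of 1180 responder cells (48.9%) and 36 of 148 non-responder cells (24.3%) had none. Some other genes of resident macrophages were missing, or nearly so, from both member groups. Lyve1, Timd4 and Vsig4, markers of perivascular, serosal and liver macrophages, had 0 UMIs in all 420 cells, and the haemoglobin scavenger receptor Cd163 had 1 UMI. Sall1 and Siglech, which mark microglia, were also at 0. Most genes of these kinds that were measured went the other way. Of listed resident macrophage genes of other tissues, Pf4, Mrc1 and Folr2 included, 8 of 9 were above the Fcrls-0 level in responder members. In non-responder members 12 of 13 were. Of microglia-type genes, 13 of 15 were above it in responder and 14 of 15 in non-responder members. The cells are therefore called here by their rule, Fcrls-high, since Pf4 alone of the 5 markers was in most members of both libraries, while in the non-responder library Mrc1, Gpr34 and P2ry12 were each in over 50% of members and Folr2 in 36.0%.

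The promoters of the markers are shown because these genes name the cell type. RefSeq sequence (GRCm38.p6), from 250 bases before to 50 after the start annotated in RefSeq, matched 5 of the 6 marker genes, Gpr34 being the exception. Each of the 5 held AGGAAG, a purine-rich core of the kind that ETS-family factors such as the macrophage regulator PU.1 bind, or its reverse complement CTTCCT. Fcrls held 4, Mrc1 3, Folr2 2, Pf4 1 and P2ry12 1. The letters occur in 35.1% of 27025 promoters searched in the same way on both strands, and a match is not a binding site. For Fcrls the RefSeq start differs from that of the gene span given at the opening, which is 87263738 on the minus strand. The Fcrls matches marked below lie inside that span, so they are upstream of the RefSeq start only. Windows of 120 bases around matches follow, each 5′ to 3′ on the gene's strand, with capitals marking AGGAAG.
Fcrls chr3:87263655-87263774 (minus strand): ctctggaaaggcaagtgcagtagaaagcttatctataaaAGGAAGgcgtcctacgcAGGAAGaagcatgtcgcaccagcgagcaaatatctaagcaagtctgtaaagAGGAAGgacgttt
P2ry12 chr3:59262975-59263094 (minus strand): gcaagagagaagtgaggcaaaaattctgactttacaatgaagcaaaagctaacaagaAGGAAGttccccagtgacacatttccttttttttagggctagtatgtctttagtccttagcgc
Folr2 chr7:101857265-101857384 (minus strand): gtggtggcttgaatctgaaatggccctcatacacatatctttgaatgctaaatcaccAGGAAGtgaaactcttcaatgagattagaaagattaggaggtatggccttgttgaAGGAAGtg

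Against Fcrls-0 cells, 362 of 7429 measured genes (4.87%) were at least 2-fold higher in responder members and 599 (8.06%) at least 2-fold lower. With TMM scaling the counts were 217 and 794 there, and 200 and 97 in the non-responder library. A gene was measured if it had at least 50 UMIs over both classes. In the non-responder library 292 of 6559 genes (4.45%) were at least 2-fold higher in members and 69 (1.05%) at least 2-fold lower. With 28 cells the responder values are loose: the counting interval of the ratio stayed clear of 1 for 163 of the higher and 94 of the lower genes there, against 252 and 69 in the non-responder library. Of 6423 genes measured in both libraries, 57 were higher in both, which is 21.6% of the 264 higher in the responder library and 22.1% of the 258 higher in the non-responder library. Another 24 were lower in both, 5.90% of the 407 lower in responder members and 38.1% of the 63 lower in non-responder members.

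Beside Pf4, the genes named as highest in members of both libraries included 3 inhibitors of proteases and 2 proteases. Ctla2a, a cathepsin inhibitor, was at 37.0 CPM in responder members against 4.56 CPM in Fcrls-0 cells and at 29.7 CPM in non-responder members against 5.19 CPM in Fcrls-0 cells. Its log2 ratios were 3.02 [2.01 to 3.93] (responder) and 2.52 [1.44 to 3.86] (non-responder). The related Ctla2b had ratios of 1.03 (responder) and 1.18 (non-responder), and the intracellular serpin Serpinb6a 1.89 (responder) and 1.60 (non-responder). Cela1, an elastase-type protease, had log2 ratios of 1.90 [0.94 to 2.74] (responder) and 3.40 [2.02 to 5.29] (non-responder). The lysosomal protease gene Ctsd was the most abundant of the group, at 843 CPM in responder members against 442 CPM in Fcrls-0 cells, and at 1964 CPM in non-responder members against 732 CPM in Fcrls-0 cells.

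Among the other named genes, Vcam1, an adhesion molecule, was at 39.9 CPM in responder members against 8.92 CPM in Fcrls-0 cells, and at 47.9 CPM in non-responder members against 9.63 CPM in Fcrls-0 cells. Mrc1 (chr2:14229392-14332057) had log2 ratios of 1.82 [1.02 to 2.53] (responder) and 1.84 [1.34 to 2.38] (non-responder). Olfml3, which encodes a secreted olfactomedin-domain protein abundant in microglia, was at 399 CPM in responder members against 178 CPM in Fcrls-0 cells, and at 380 CPM in non-responder members against 127 CPM in Fcrls-0 cells. Its member levels were alike in both libraries, unlike those of Pf4. Igfbp4, a binding protein for insulin-like growth factors, had log2 ratios of 2.04 (responder) and 1.65 (non-responder), and Syngr1, a vesicle membrane protein first known from synapses, 1.92 (responder) and 1.81 (non-responder).

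Ch25h makes 25-hydroxycholesterol and was at 228 CPM in responder members against 87.3 CPM in Fcrls-0 cells, and at 158 CPM in non-responder members against 43.0 CPM in Fcrls-0 cells. Prdx4, a peroxiredoxin of the endoplasmic reticulum, had log2 ratios of 1.08 (responder) and 1.09 (non-responder), and the histone gene Hist1h2bc 1.31 (responder) and 1.01 (non-responder). AI427809 had ratios of 2.52 (responder) and 2.16 (non-responder).

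The genes named as lowest in members of both libraries included Ly6c2 and Plac8, known from monocytes, and 4 class II genes. Ly6c2 was at 0 UMIs in the 28 responder members against 115 CPM in Fcrls-0 cells, which is at least 13.4-fold lower when 3 UMIs are taken for the class at 0. In the non-responder library it was at 3.84 CPM in members against 233 CPM in Fcrls-0 cells, a log2 ratio of -5.93 [-6.68 to -5.26]. These gaps rest on a minority of Fcrls-0 cells, since Ly6c2 was detected in 21.0% of responder and 18.9% of non-responder ones. It was detected in 0% [0 to 12.3] of responder and 4.08% of non-responder members. The median non-responder Fcrls-0 cell was at 0 CPM of Ly6c2 and the highest at 11678.5 CPM. Ly6c2 was present in 57.8% of responder and 45.6% of non-responder T cell barcodes too, so it is no monocyte-only gene in these libraries. Plac8, another gene of monocytes, was at 25.6 CPM in responder members against 174 CPM in Fcrls-0 cells and at 6.46 CPM in non-responder members against 139 CPM in Fcrls-0 cells. Ifitm1, an interferon-induced membrane protein gene, was at 57 CPM in responder members against 760 CPM in Fcrls-0 cells and at 10.1 CPM in non-responder members against 306 CPM in Fcrls-0 cells.

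Among inflammatory genes, Ccl5, a chemokine that attracts T cells, was at 308 CPM in responder members against 2343 CPM in Fcrls-0 cells, and at 229 CPM in non-responder members against 1219 CPM in Fcrls-0 cells. Il1b had log2 ratios of -2.63 [-3.11 to -2.18] (responder) and -1.25 [-1.38 to -1.11] (non-responder), and the decoy receptor gene Il1r2 -2.83 (responder) and -3.21 (non-responder). Ccl3 had ratios of -1.79 (responder) and -0.77 (non-responder). The lectin receptor gene Klrb1b was at 8.55 CPM (3 UMIs) in responder members against 82.6 CPM in Fcrls-0 cells and at 8.08 CPM in non-responder members against 82.2 CPM in Fcrls-0 cells. The cystine transporter gene Slc7a11 rested on 1 UMI in responder members. The calcium-binding protein gene S100a11 and the protease gene Napsa had log2 ratios of -0.92 and -1.83 in the responder library and of -1.22 and -2.70 in the non-responder library.

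**Figure D2:**
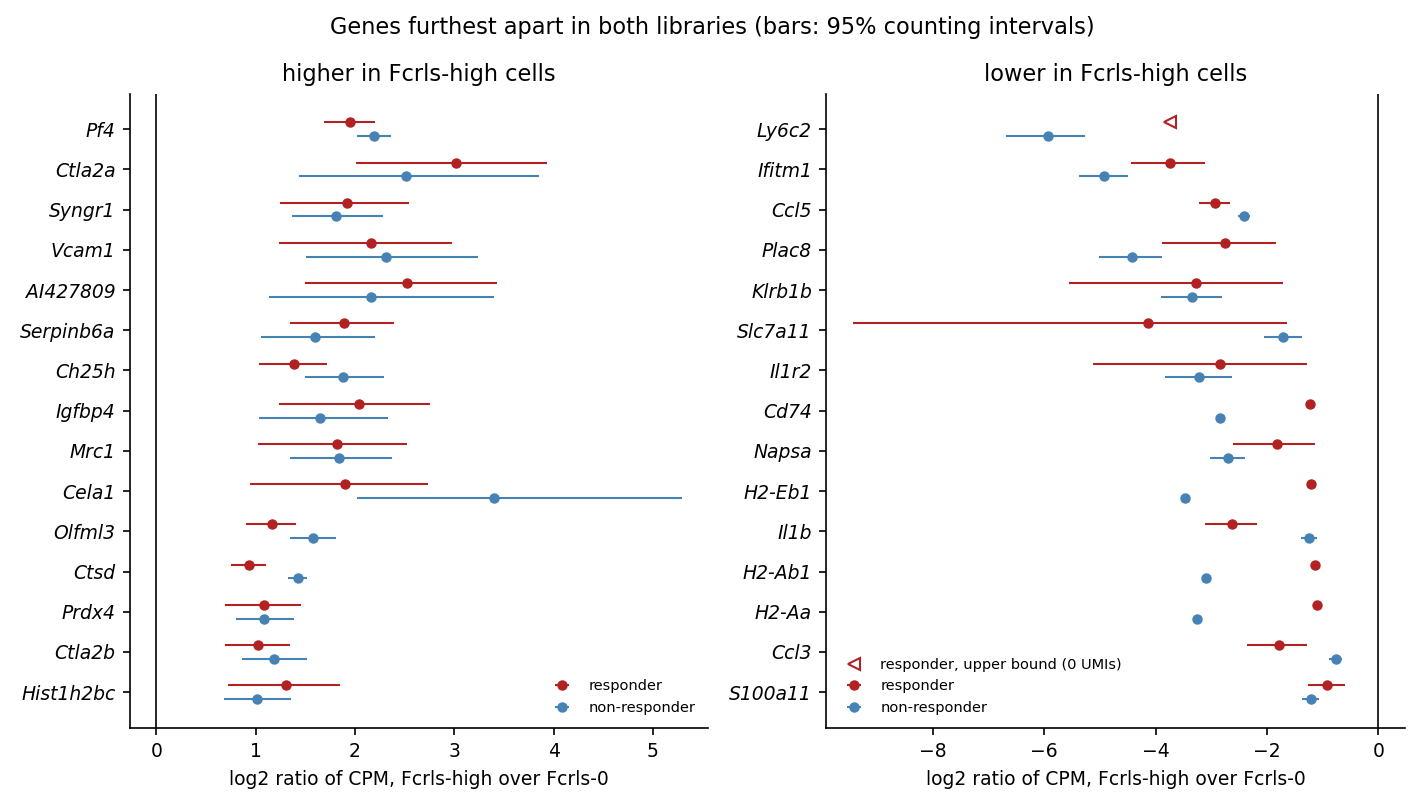
Log2 ratio of CPM, Fcrls-high over Fcrls-0 cells (horizontal axis), for the 15 genes furthest above 0 (left) and the 15 furthest below 0 (right) in both libraries, with points for the ratio of each library and bars for 95% counting intervals. The class II genes H2-Aa, H2-Ab1, H2-Eb1 and Cd74 sit between -1.22 and -1.1 in the responder library and between -3.47 and -2.85 in the non-responder library.

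MHC class II transcripts were the most abundant of the lower genes. H2-Ab1 (chr17:34257689-34269419), which encodes a class II beta chain, was at 7209 CPM in responder members against 15792 CPM in Fcrls-0 cells, and at 1072 CPM in non-responder members against 9210 CPM in Fcrls-0 cells. H2-Aa, the alpha chain partner, was at 5488 CPM in responder members against 11753 CPM in Fcrls-0 cells, and at 916 CPM in non-responder members against 8716 CPM in Fcrls-0 cells. Cd74, the invariant chain that escorts class II to endosomes, had log2 ratios of -1.22 [-1.26 to -1.19] (responder) and -2.85 [-2.88 to -2.83] (non-responder). Ciita, the master regulator of class II transcription, was at 11.4 CPM (4 UMIs) in responder members against 28.4 CPM in Fcrls-0 cells and at 2.42 CPM in non-responder members against 24.4 CPM in Fcrls-0 cells. Of the class II list, 6 of 9 genes measured were at least 2-fold lower in responder members and 6 of 7 in non-responder members, with none at least 2-fold higher and median log2 ratios of -1.13 (responder) and -2.85 (non-responder).

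The 2 class II promoters matched in RefSeq are shown because these genes were lower together in members of both libraries. Both hold CTGATTGG, the Y box of class II promoters, in capitals below, at -51 from the annotated start in H2-Aa and at -62 in H2-Eb1. The letters or their reverse complement CCAATCAG occur in 4.31% of the 27025 promoters.
H2-Aa chr17:34287812-34287931 (minus strand): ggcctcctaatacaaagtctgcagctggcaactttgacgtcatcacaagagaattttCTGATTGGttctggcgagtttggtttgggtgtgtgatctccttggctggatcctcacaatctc
H2-Eb1 chr17:34305748-34305867 (plus strand): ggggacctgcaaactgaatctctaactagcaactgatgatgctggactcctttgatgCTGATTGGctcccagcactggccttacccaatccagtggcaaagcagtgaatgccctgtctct

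Some genes stepped with Fcrls across all gated macrophages and others did not. The gated cells of each library were binned at 0, 1 to 2, 3 to 7, 8 to 15 and 16 or more Fcrls UMIs. In the non-responder library, Pf4 was at 219, 323, 617, 833 and 1204 CPM over these bins, and Ctsd at 732, 943, 1211, 1638 and 2364 CPM. H2-Ab1 ran the other way, at 9210, 5631, 2987, 1593 and 432 CPM, as did Ccl5, at 1219, 956, 464, 361 and 67.5 CPM. Ifitm1 and Ly6c2 differed most between the first bins: Ifitm1 was at 306 and 40.7 CPM at 0 and at 1 to 2 UMIs, and Ly6c2 at 233 and 56.1 CPM. The responder library had 25 cells in the bin of 8 to 15 and 3 in the top bin. Its H2-Ab1 was at 15792, 13310, 9726, 7640 and 4097 CPM and its Pf4 at 105, 200, 342, 406 and 421 CPM. Ccl12 did not step in the responder library, at 816, 1220, 1467, 1200 and 1100 CPM, nor did the monocyte attractant Ccl2 in the non-responder library, at 739, 1277, 1146, 1229 and 1039 CPM. Depth was not held equal across the bins.

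**Figure D3:**
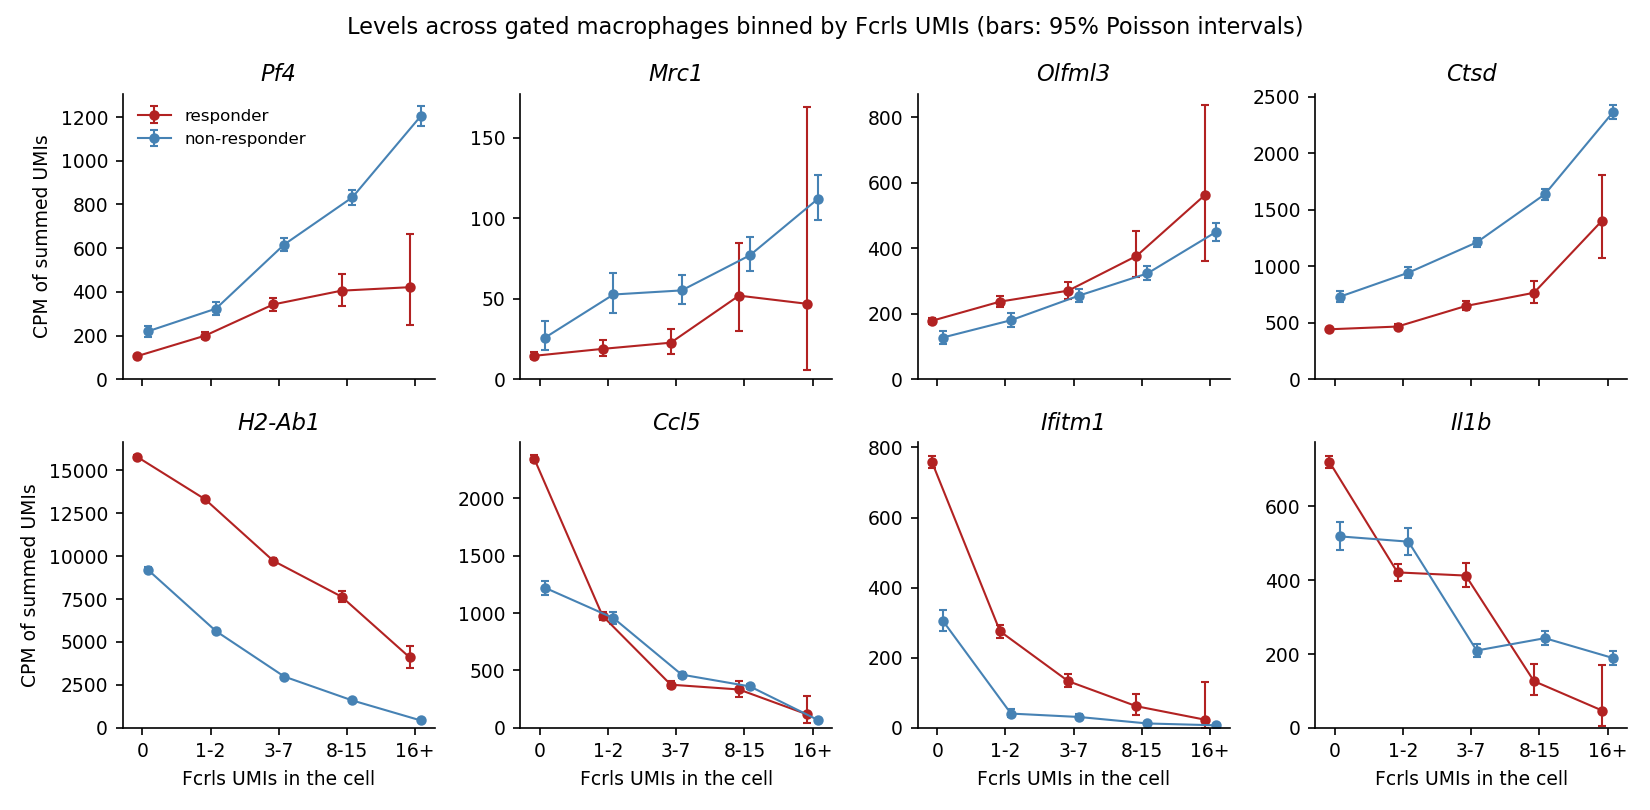
CPM of summed UMIs (vertical axis) for 8 genes over gated macrophages binned by Fcrls UMIs per cell (horizontal axis), with points for each library and bars for 95% Poisson intervals. Pf4, Mrc1, Olfml3 and Ctsd were higher and H2-Ab1, Ccl5 and Ifitm1 lower in non-responder cells with more Fcrls, and the responder top bin rests on 3 cells.

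Gene lists placed these genes in wider groups. Microglia-type genes had median log2 ratios of 0.54 over 15 measured genes in responder and 0.51 over 15 in non-responder members, with 4 and 2 at least 2-fold higher. All measured genes had medians of 0.06 (responder) and 0.18 (non-responder). P2ry13, an ADP receptor related to P2ry12, had ratios of 2.13 (responder) and 1.29 (non-responder), and Tmem119 0.83 (responder) and 0.32 (non-responder). Cx3cr1, the fractalkine receptor, was at 256 CPM in responder members against 230 CPM in Fcrls-0 cells and at 444 CPM in non-responder members against 293 CPM in Fcrls-0 cells. Sparc, a matrix-binding protein gene that marks microglia, had 1 UMI in responder and 5 in non-responder members.

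Resident macrophage genes of other tissues were counted over unequal sets, since a gene such as Cbr2 reached 50 UMIs through non-responder members alone. In responder members 2 of 9 measured genes were at least 2-fold higher (median 0.45), and in non-responder members 8 of 13 (median 1.84, and 0.92 with genes of at least 200 UMIs). This list holds the markers Pf4, Mrc1 and Folr2 given above. The 2 higher in responder members are Pf4 and Mrc1, and Pf4, Mrc1 and Folr2 are among the 8 in non-responder members. Cbr2, a carbonyl reductase, and the growth factor gene Igf1 had 0 UMIs in responder members and Gas6, a bridging ligand for uptake of dead cells, had 1, in a class of 350962 UMIs. In non-responder members Cbr2 was at 31.7 CPM against 7.41 CPM in Fcrls-0 cells, Gas6 at 22.6 CPM against 5.93 CPM in Fcrls-0 cells, and Igf1 at 18.0 CPM against 2.96 CPM in Fcrls-0 cells. Sepp1, a selenium carrier, and Stab1, a scavenger receptor, were higher in members of both libraries, with log2 ratios of 0.38 (responder) and 0.80 (non-responder) for Sepp1 and of 0.84 (responder) and 0.92 (non-responder) for Stab1.

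Lipid and lysosome genes had medians of 0.36 over 23 genes in responder and 0.29 over 23 in non-responder members, with 2 and 3 at least 2-fold higher and none 2-fold lower. Trem2, the lipid-sensing receptor, was at 664 CPM in responder members against 479 CPM in Fcrls-0 cells and at 971 CPM in non-responder members against 643 CPM in Fcrls-0 cells. Apoe was among the most abundant transcripts and close in all classes, at 13566 CPM in responder members against 12749 CPM in Fcrls-0 cells and at 13885 CPM in non-responder members against 11349 CPM in Fcrls-0 cells. Abca1, a cholesterol exporter, had ratios of 0.66 (responder) and 1.36 (non-responder). Gpnmb, a gene of lipid-laden macrophages, had 0 UMIs in responder and 19 in non-responder members.

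Chemokine and cytokine genes split. In responder members 0 of 18 were at least 2-fold higher and 3 at least 2-fold lower, and in non-responder members 4 of 19 were at least 2-fold higher and 4 lower. The list's median was -0.35 in responder members, 0.05 at a limit of 5 UMIs of Fcrls, and -0.39 in non-responder members. The monocyte attractants Ccl7 and Ccl12 were at 1057 and 1188 CPM in responder members against 763 and 816 CPM in Fcrls-0 cells. In the non-responder library Ccl7 and Ccl12 were at 1014 and 2708 CPM in members against 299 and 787 CPM in Fcrls-0 cells. Cxcl10, an interferon-induced attractant of T cells, was at 570 CPM in responder members against 333 CPM in Fcrls-0 cells. In the non-responder library it was at 325 CPM in members against 158 CPM in Fcrls-0 cells. These Cxcl10 sums varied widely from cell to cell. The median responder member was at 83.9 CPM of Cxcl10 and the highest at 6254 CPM. The median non-responder member was at 0 CPM of Cxcl10 and the highest at 7228 CPM. The neutrophil attractant Cxcl2 was lower, at 450 CPM in responder members against 758 CPM in Fcrls-0 cells and at 1209 CPM in non-responder members against 1872 CPM in Fcrls-0 cells.

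Of 16 S phase and replication genes, 4 were at least 2-fold higher in responder members and 8 in non-responder members, in cells from which the gate had removed those with Mki67 or Top2a. The median log2 ratios were 0.76 (responder) and 1.03 (non-responder). In the non-responder library the list's median share of UMIs was 0.103% in members, 0.103% at 1 to 7 Fcrls UMIs and 0.083% in Fcrls-0 cells. The higher share there was thus not particular to members. In the responder library these shares were 0.101%, 0.072% and 0.067%. Stmn1, a microtubule regulator of dividing cells, was at 185 CPM in responder members against 92.8 CPM in Fcrls-0 cells and at 171 CPM in non-responder members against 57.8 CPM in Fcrls-0 cells. Mcm3 and Mcm5, subunits of the replicative helicase, had ratios of 1.0 and 0.90 in the responder library and of 1.29 and 1.24 in the non-responder one. Members were deeper than Fcrls-0 cells, as given above. With members chosen at Fcrls of at least 0.05% of UMIs the responder median was 0.18. Over the alternative settings, thinned cells and cells of 8000 to 30000 UMIs included, the median ran from 0.18 to 1.03 in responder and from 0.81 to 1.1 in non-responder members.

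Immediate early and stress genes, which dissociation can induce, had medians of -0.53 over 19 genes in responder and -0.52 in non-responder members. Fos was at 1476 CPM in responder members against 2052 CPM in Fcrls-0 cells and at 1387 CPM in non-responder members against 2043 CPM in Fcrls-0 cells. Monocyte genes had 4 of 12 at least 2-fold lower in each library, with medians of -0.11 in responder members (from -0.39 to 0.02 over the alternative settings) and -0.53 in non-responder members. Above 0 were 4 of the 12 in responder and 3 in non-responder members. Lyz2 of this list had a median per cell of 6270 CPM in responder members against 5716 CPM in Fcrls-0 cells. In the non-responder library it was 11734 CPM in members against 6428 CPM in Fcrls-0 cells. Ccr2, the receptor that brings monocytes into tissue, was at 14.2 CPM (5 UMIs) in responder members against 45.5 CPM in Fcrls-0 cells and at 66.8 CPM in non-responder members against 166 CPM in Fcrls-0 cells.

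Genes of the interferon-gamma response had medians of -0.40 over 22 genes in responder and 0.01 over 19 in non-responder members. Type I interferon genes had medians of 0.44 in responder members (from 0.09 to 0.44 over the alternative settings) and 0.02 in non-responder members, over 22 genes each. Transcription factor genes had medians of -0.35 over 23 genes in responder and -0.02 over 21 in non-responder members. Maf, a regulator of resident-type macrophages, had ratios of 0.88 (responder) and 1.35 (non-responder). Bhlhe41, a regulator of resident lung macrophages, was at 56.7 CPM in non-responder members against 26.7 CPM in Fcrls-0 cells and rested on 3 UMIs in responder members. In responder and non-responder members the medians were -0.01 and -0.21 for complement and Fc receptor genes, 0.33 and 0.30 for efferocytosis and scavenger receptors, 0.03 and 0.37 for matrix and growth factor genes and 0.26 and 0.26 for purinergic genes. They were -0.06 and -0.13 for TGF-beta signalling genes, -0.04 and 0.05 for haem, iron and redox genes and 0.28 and -0.01 for hypoxia and glycolysis genes.

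Members varied among themselves in class II transcripts. H2-Aa, H2-Ab1, H2-Eb1 and Cd74 together made up a median of 3.04% of UMIs in responder members, from 0.24% to 8.77%, and 0.10% in non-responder members, from 0% to 10.4%. Their 10th and 90th percentiles were 1.28% and 6.72% in responder members and 0.02% and 1.98% in non-responder members. Most non-responder members thus held next to no class II, while a minority reached the level of Fcrls-0 cells, whose medians were 7.72% (responder) and 4.91% (non-responder). H2-Ab1 was detected in 100% of responder members and in 83.7% of non-responder ones. In T cell barcodes its median was 688 CPM in the responder library and 0 CPM in the non-responder one. The part of free class II RNA in the members' values was not tested.

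**Figure D4:**
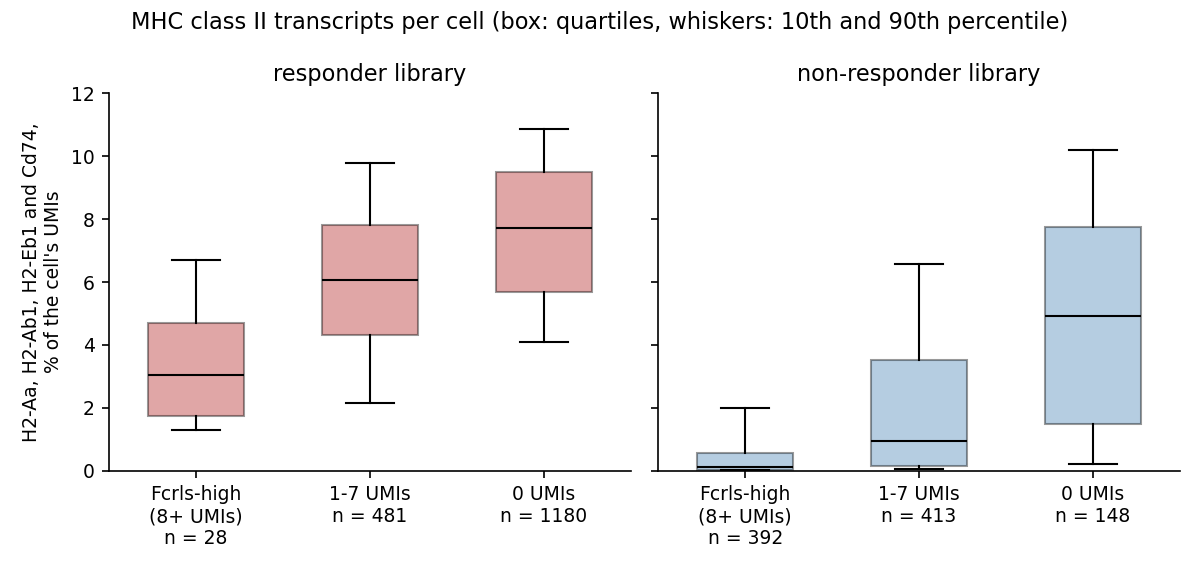
Share of each cell's UMIs that came from H2-Aa, H2-Ab1, H2-Eb1 and Cd74 (vertical axis, percent) in Fcrls-high, intermediate and Fcrls-0 macrophages of the responder (left) and non-responder (right) library, as boxes of quartiles with the median line and whiskers at the 10th and 90th percentiles. The medians of Fcrls-high cells were 3.04% and 0.10%.

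In the ranking of variance over that expected from counting, the leading genes among 2582 measured in non-responder members were Cd74 (ratio 168), Ccl5 (98.4), Apoe (84.9), Actb (84.0), Lyz2 (75) and Ccl12 (73.9), against a median of 1.2. Ccl12 had a median of 712 CPM per cell, a 90th percentile of 7527 and a highest cell at 27217. In responder members the leaders of 919 genes were Actb (184), Malat1 (79.9) and Cd74 (76.2), with a median of 1.4. Across the 392 non-responder members the class II share had a Spearman correlation of -0.32 with the Fcrls share and the share of the 5 markers one of 0.27. Across the 28 responder members these were -0.07 and 0.04. All points of a correlation come from 1 library, and cells are not replicates.

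Responder and non-responder members differed by at least 2-fold in 216 genes higher (3.51%) and 560 lower (9.09%) of 6160 measured, and for 168 and 189 of them the interval of the ratio stayed clear of 1. Fcrls-0 cells give the same comparison outside the members: 469 of 7812 genes (6.00%) were at least 2-fold higher and 172 (2.20%) lower in the responder library.

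Class II genes led the higher genes. H2-Eb1 was at 4530 CPM in responder members and 625 CPM in non-responder members, a log2 ratio of 2.86 [2.77 to 2.94], against 0.59 [0.56 to 0.62] between Fcrls-0 cells of the same libraries. H2-Ab1 had log2 ratios of 2.75 in members and 0.78 in Fcrls-0 cells, H2-Aa 2.58 in members and 0.43 in Fcrls-0 cells, and Cd74 2.16 in members and 0.53 in Fcrls-0 cells. Of the class II list, 6 of 7 genes measured were at least 2-fold higher in responder members (median 2.16), and 0 of 9 in responder Fcrls-0 cells (median 0.45). With 1 library per group the gap between these 2 ratios could not be tested.

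Interferon-gamma induced genes were higher in both classes of responder cells. In members 12 of 19 genes were at least 2-fold higher (median 1.37), and in Fcrls-0 cells 17 of 22 (median 1.75). The gate's Cxcl9 limit had taken out far more responder than non-responder barcodes, as given above. Over the alternative settings, a gate without that limit included, the median ran from 1.03 to 1.42 in members. In Fcrls-0 cells it ran from 1.67 to 1.85. Ly6a, which encodes the surface protein Sca-1, was at 3000 CPM in responder and 516 CPM in non-responder members, a log2 ratio of 2.54 [2.43 to 2.64], with 1.66 in Fcrls-0 cells. The guanylate-binding protein gene Gbp2 was at 425 CPM in responder and 94.9 CPM in non-responder members, with log2 ratios of 2.16 in members and 1.87 in Fcrls-0 cells. Fcgr4, an activating receptor for IgG, was at 946 CPM in responder and 250 CPM in non-responder members, with log2 ratios of 1.92 in members and 1.80 in Fcrls-0 cells. The serpin gene Serpina3g was at 103 CPM in responder and 17.8 CPM in non-responder members, with log2 ratios of 2.53 in members and 4.03 in Fcrls-0 cells. Type I interferon genes had medians of 0.65 in members and 0.22 in Fcrls-0 cells.

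Klrk1, which encodes the activating receptor NKG2D, was at 76.9 CPM (27 UMIs) in responder and 6.66 CPM in non-responder members. It is the main gene of the NK cell list, whose 10 genes summed to 96.9 CPM in responder members and 11.5 CPM in non-responder members, and to 106 and 22.2 CPM in Fcrls-0 cells. Among responder members 7 of these 10 genes were at 0, and no member of either library had more than 5 UMIs of the list. The G protein-coupled receptor gene Gpr171 had log2 ratios of 2.35 in members and 0.99 in Fcrls-0 cells.

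Lower in responder members were Lsp1, an actin-binding protein of leukocytes, at 17.1 CPM (6 UMIs) against 172 CPM in non-responder members, and Fn1 (fibronectin), at 34.2 CPM (12 UMIs) against 252 CPM. Their log2 ratios were -3.33 [-4.78 to -2.20] and -2.88 [-3.84 to -2.07], with -2.34 (Lsp1) and -2.83 (Fn1) in Fcrls-0 cells. Ier3, an early response gene, was at 42.7 CPM in responder and 274 CPM in non-responder members, with log2 ratios of -2.68 in members and -0.51 in Fcrls-0 cells. Emp1, an epithelial membrane protein gene, had ratios of -2.82 in members and -2.08 in Fcrls-0 cells, Egr1, an immediate early transcription factor, -2.56 in members and -2.27 in Fcrls-0 cells, and Ccl3 -2.07 in members and -1.04 in Fcrls-0 cells. Fdps, an enzyme of isoprenoid and cholesterol synthesis, rested on 3 UMIs in responder members, with ratios of -3.40 in members and -2.17 in Fcrls-0 cells. Clec4e, the lectin receptor Mincle, and Cbr2 had 0 UMIs in responder members, at least 4.75-fold and 3.71-fold lower than their 40.6 and 31.7 CPM in non-responder members when 3 UMIs are taken for the class at 0. Over the alternative settings, which change the members, their log2 values came as near 0 as -0.76 (Clec4e) and -0.71 (Cbr2).

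Of the 5 resident-type markers, 3 were at least 2-fold lower in responder members (median -1.29), and 4 in responder Fcrls-0 cells (median -1.28). Gpr34 had log2 ratios of -2.99 in members and -2.55 in Fcrls-0 cells, and Folr2 -2.10 in members and -1.28 in Fcrls-0 cells. Pf4, Mrc1 and P2ry12 had ratios of -1.29, -0.85 and -0.69 in members and of -1.06, -0.83 and -1.35 in Fcrls-0 cells. The interval for P2ry12 in members, -1.57 to 0.08, crossed 0. The list of resident macrophage genes of other tissues is no separate set, since it holds Pf4, Mrc1 and Folr2. It had 6 of 13 at least 2-fold lower in responder members (median -0.88) and 2 of 10 in Fcrls-0 cells (median -0.56). Pf4 and Folr2 are among the 6 in members and are the 2 in Fcrls-0 cells. The counts of this list also rest on unequal sets. Cbr2, with 0 UMIs in responder and 157 in non-responder members, was not measured between the Fcrls-0 cells. Microglia-type genes had medians of -0.42 in members and -0.47 in Fcrls-0 cells. Matrix and growth factor genes had 5 of 13 at least 2-fold lower in responder members (median -0.75, from -0.93 to -0.26 over the alternative settings, against -0.26 in Fcrls-0 cells), and chemokine genes 5 of 18 (median -0.43, against -0.07 in Fcrls-0 cells). Replication genes had medians of 0.09 in members and 0.10 in Fcrls-0 cells and lipid and lysosome genes of -0.29 in members and -0.30 in Fcrls-0 cells, although replication genes in members ran from -0.61 to 0.10 over the alternative settings.

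**Figure D5:**
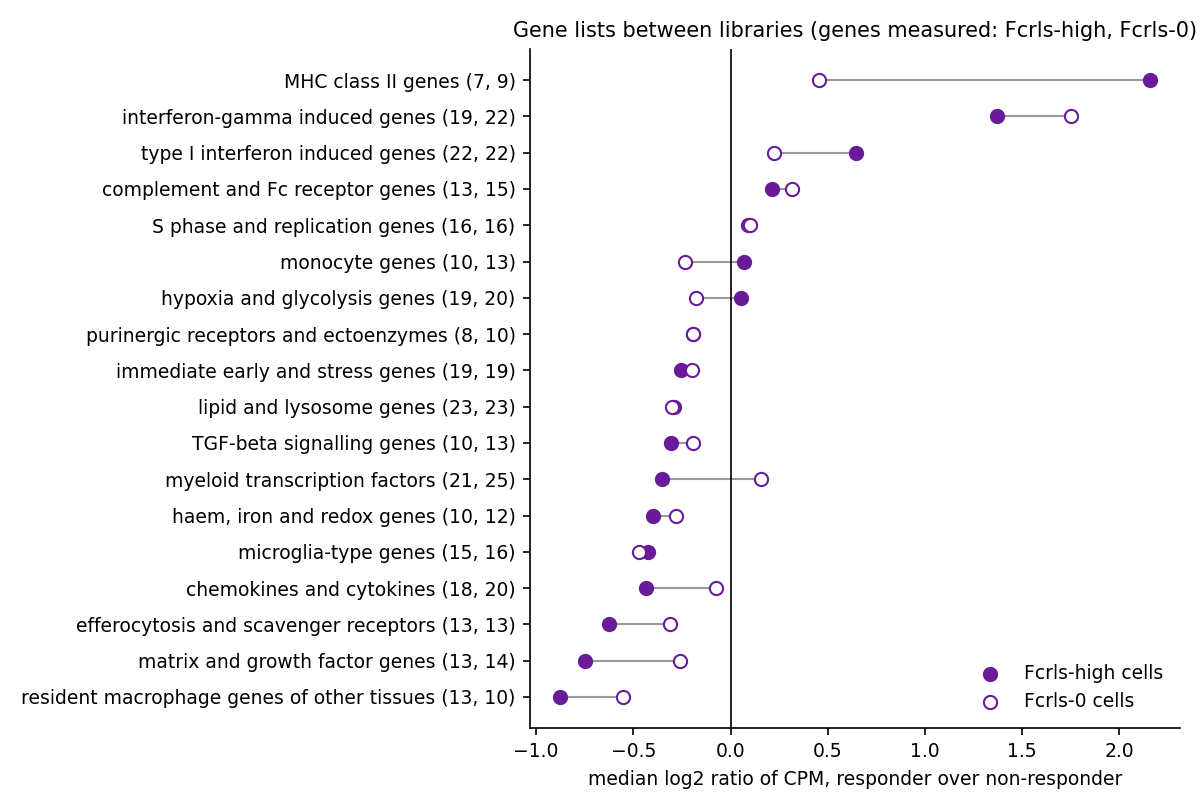
Median log2 ratio of CPM, responder over non-responder (horizontal axis), of each gene list in Fcrls-high cells (filled) and Fcrls-0 cells (open), with the number of genes measured in each class beside the list's name. MHC class II genes sit at 2.16 in Fcrls-high and 0.45 in Fcrls-0 cells, and resident macrophage genes of other tissues at -0.88 and -0.56.

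The part of transcripts of other cell types in the results was not tested. T cell genes summed to 19.9 CPM in responder members against 29.0 CPM in Fcrls-0 cells, and to 15.8 CPM in non-responder members against 28.9 CPM in Fcrls-0 cells. Dendritic cell genes, mostly Batf3, summed to 45.6 CPM in responder members against 56.5 CPM in Fcrls-0 cells and to 26.3 CPM in non-responder members against 38.5 CPM in Fcrls-0 cells. Neutrophil genes summed to 19.9 CPM in responder members against 35.7 CPM in Fcrls-0 cells and to 39.0 CPM in non-responder members against 160 CPM in Fcrls-0 cells, where 1 Fcrls-0 cell held 109 of their UMIs. Platelet genes, which could accompany Pf4, were at 0 in all responder members and present in 9 of 392 non-responder members, and Ppbp, which defines platelets, was in 5 of those. Mast cell and erythroid genes were at 0 in responder members and at 0.202 and 3.23 CPM in non-responder members. The osteoclast list, nearly all of it Acp5, a phosphatase gene that macrophages also express, summed to 470 CPM in responder members against 400 CPM in Fcrls-0 cells and to 177 CPM in non-responder members against 336 CPM in Fcrls-0 cells. Cd79b was the one B cell gene seen in members. The B cell list summed to 94.0 CPM in responder members against 69.0 CPM in Fcrls-0 cells, with a UMI in 67.9% of members against 38.2% of Fcrls-0 cells. In the non-responder library it summed to 25.4 CPM in members against 23.7 CPM in Fcrls-0 cells, with a UMI in 21.4% of members against 16.2% of Fcrls-0 cells. In the responder library a UMI of the NK cell list was in 46.4% of members against 53.9% of Fcrls-0 cells, of the dendritic cell list in 46.4% against 33.1%, of the endothelial list in 42.9% against 30.9% and of the osteoclast list in 85.7% against 78.1%. In the non-responder library these shares were 10.7% of members against 16.2% of Fcrls-0 cells, 23.7% against 26.4%, 10.5% against 14.2% and 63.3% against 70.9%. At 3 or more UMIs of the NK cell list the order in the responder library was reversed. That many were found in 7 of 28 responder members against 91 of 1180 responder Fcrls-0 cells. In the non-responder library the counts were 5 of 392 members and 1 of 148 Fcrls-0 cells. Depth was not held equal in these counts. In responder and non-responder members, endothelial genes summed to 39.9 and 8.68 CPM, fibroblast genes to 8.55 and 4.24 CPM, epithelial genes to 8.55 and 3.03 CPM and Langerhans cell genes to 11.4 and 1.21 CPM.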

How the data were processed

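CD45+ cells from responder and non-responder tumours were measured as 1 10x library each. The authors deposited filtered matrices of UMI counts (whole numbers per gene and barcode, not normalized), made with Cell Ranger 1.1.0 on mm10 per the submitters' processing notes. Filters before deposit beyond the cell calls are not given in the sources used here. Depth was 45866561 UMIs in the responder library and 32032569 in the non-responder one.

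From these counts, UMIs were summed per library and class and divided by the class total (CPM). Ratios are of these CPM with no pseudocount, and a class at 0 was taken at 3 UMIs over the class. Shares have Clopper-Pearson intervals, sums Poisson intervals and ratios conditional binomial ones (Python 3.11.15, numpy 2.4.6, scipy 1.17.1, pandas 2.3.3, with edgeR 4.0.16 in R 4.3.3 for TMM scaling only). No count test was run, because each group is 1 library. Gene coordinates are those of GENCODE vM21, which holds 27722 of the 27998 gene IDs. The fold computation was tested on simulated data.

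Genes named are the 15 higher and 15 lower whose interval bound lay furthest from 0 in both libraries, the 10 higher and 10 lower between libraries, and genes of the lists. Genes of the rule were left out. The members, lists and rules were chosen with earlier results of these data known. Doublets were not called. Values were recomputed under 15 alternative settings, 2 of them chosen after seeing the data. A few results are not reported here.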

Additional observations from a re-analysis of the deposited data

How the results depend on the processing

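The share of Fcrls-high cells followed the limit: it was 4.56% (responder) and 57.3% (non-responder) of gated macrophages at 5 UMIs, 0.651% and 26.9% at 12 UMIs, and 4.03% and 53.2% at 0.05% of the cell's UMIs. Without the limits on Arg1, Cxcl9, Spp1 and Ccl8 it was 46.4% in the non-responder library. Against Fcrls-0 cells, responder members had 130 genes at least 2-fold higher and 350 lower at a limit of 5 UMIs, 700 higher at 12 UMIs and 178 higher at 0.05%. The count of higher genes was 217 with TMM scaling and 221 with median-of-ratios scaling, which shifted every log2 ratio by -0.16 and -0.15 in the responder library and by -0.13 and -0.12 in the non-responder one. With genes measured at 1 UMI it was 1143, at 200 UMIs it was 53 higher and 135 lower, and with an interval clear of 1 it was 163 and 94. Non-responder members had 174 higher genes in thinned cells, 886 higher and 425 lower at 1 UMI, and 49 higher and 27 lower at 200 UMIs. Between responder and non-responder members, 115 genes were higher in thinned cells, 982 at 1 UMI and 58 (92 lower) at 200 UMIs, and 189 were lower with an interval clear of 1. C5ar2 (1 UMI in responder members) turned from -1.01 to 0.44 at 5 UMIs, 0.45 at 0.05% and 0.69 with the wide gate, and Rrm2 in the non-responder library from 1.12 to -0.25 as a mean over cells. The other 68 values stayed within 1.5-fold (counts) or within the main interval (shares), and 1021 of 1028 list medians stayed within 1.5-fold. Of the named genes, 16 of 30 log2 ratios in the responder library, 12 of 30 in the non-responder library and 9 of 20 between members moved by over 1.5-fold in some setting, and 0 turned in sign. Values nearest 0 against Fcrls-0 cells in the responder library were 0.62 for Hist1h2bc, 0.87 for Syngr1, 1.09 for Cela1, -0.68 for Ccl3, -1.09 for Slc7a11 and -1.45 for Il1b. Between members they were -1.14 for Ccl3, -1.37 for Ier3, -1.51 for Egr1, -1.58 for Emp1 and -1.91 for Fdps. The cause of these differences was not tested. No paired analysis was possible because each group is 1 library. With 28 responder members, genes under about 10 UMIs there cannot be placed to within 2-fold.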
